A study of Homo sapiens with 480 samples.

Results

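The genes described here encode linker and replacement histone variants: H1-10, H2AX, H2AJ, H2AZ1, H2AZ2, H3-3A, H3-3B, MACROH2A1 and MACROH2A2. They were chosen by name, and all 9 were found among the 20302 features measured. Jurkat, an established line from a human T cell leukaemia, was studied beside J-Lat A2, a clone of it that carries an integrated HIV-derived provirus and serves as a model of latent infection. Each line was kept for 24 h with 0.1% v/v DMSO (the vehicle), 1 uM SAHA (suberoylanilide hydroxamic acid, an inhibitor of histone deacetylases) or PMA at 1 ug/mL, a phorbol ester and protein kinase C activator. Each cell was sorted into its own well of a 96-well plate, and its RNA was copied from a poly(T) primer. The first experimental batch holds 2 of the plates and the other batch 3. J-Lat A2 with DMSO, J-Lat A2 with SAHA and Jurkat with DMSO were present in both batches (n = 2), while J-Lat A2 with PMA, Jurkat with SAHA and Jurkat with PMA were present in the second batch only (n = 1). The J-Lat A2 values describe 1 clone, and no source used here says whether wells and plates of a batch came from separate cultures.

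Most histone genes are transcribed in S phase, when new DNA is packed, and their messages end in a stem-loop with no poly(A) tail. Replacement variants are made outside this programme, mostly from polyadenylated messages, and are placed in chromatin by their own chaperones. H3.3, the product of H3-3A and H3-3B, marks active genes and regulatory elements. H2A.Z, encoded by H2AZ1 and H2AZ2, sits at promoters beside the start site. MacroH2A carries a large macro domain and is associated with silenced chromatin. H2AX is phosphorylated around DNA breaks, H2AJ is a lesser known H2A variant, and H1-10 is a linker histone that binds the DNA between nucleosomes.

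H3-3A and H3-3B show how a single protein can be encoded by unlike sequences. Their coding sequences are 408 bases each in the GENCODE annotation and differ at 88 positions, an identity of 78.4%, yet the translated proteins differ at 0 positions. The first 60 coding bases of both genes are shown here with differing bases in capitals.
H3-3A: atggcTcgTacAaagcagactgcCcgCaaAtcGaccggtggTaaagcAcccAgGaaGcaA
H3-3B: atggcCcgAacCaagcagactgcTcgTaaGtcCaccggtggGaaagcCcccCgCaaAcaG
Of these 60 bases, 13 differ. H2AZ1 and H2AZ2 have coding sequences of 384 bases with 75 differences (80.5% identity). Their proteins differ at 3 positions, T15A, S39T and V128A, with the H2AZ1 residue first and positions counted from the start methionine as 1.

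In GRCh38 (GENCODE 29 coordinates) H3-3A (ENSG00000163041.13) spans chr1:226061851-226072001 on the plus strand with 3 exons in the principal transcript, and H3-3B (ENSG00000132475.10) spans chr17:75776434-75785893 on the minus strand with 4. H2AZ1 (ENSG00000164032.12) lies at chr4:99948086-99950388 and H2AZ2 (ENSG00000105968.19) at chr7:44826791-44848083, both on the minus strand with 5 exons. MACROH2A1 (ENSG00000113648.16) lies at chr5:135333900-135399914 on the minus strand and MACROH2A2 (ENSG00000099284.15) at chr10:70052796-70112280 on the plus strand, with 9 exons each. H1-10 (ENSG00000184897.6, chr3:129314771-129316277, minus strand), H2AX (ENSG00000188486.3, chr11:119093854-119095467, minus strand) and H2AJ (ENSG00000246705.4, chr12:14774383-14778002, plus strand) have 1 exon in the principal transcript. All values below are sums of reads over a whole gene.

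The promoters of the same 4 genes are shown because the balance within each pair shifted in the data below. Each sequence is the 250 bases before a RefSeq start on GRCh38.p14, with CCAAT or its reverse complement ATTGG, and TATAAA or its reverse complement TTTATA, in capitals. They lie at chr17:75779780-75780029 (minus strand), chr1:226062466-226062715 (plus strand), chr4:99950276-99950525 (minus strand) and chr7:44848088-44848337 (minus strand).
H3-3B: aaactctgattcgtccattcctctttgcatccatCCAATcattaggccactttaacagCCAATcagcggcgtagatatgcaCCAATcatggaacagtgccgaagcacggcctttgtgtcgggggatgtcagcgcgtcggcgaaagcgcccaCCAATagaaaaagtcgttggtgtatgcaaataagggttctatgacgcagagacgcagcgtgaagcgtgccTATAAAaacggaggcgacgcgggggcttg
H3-3A: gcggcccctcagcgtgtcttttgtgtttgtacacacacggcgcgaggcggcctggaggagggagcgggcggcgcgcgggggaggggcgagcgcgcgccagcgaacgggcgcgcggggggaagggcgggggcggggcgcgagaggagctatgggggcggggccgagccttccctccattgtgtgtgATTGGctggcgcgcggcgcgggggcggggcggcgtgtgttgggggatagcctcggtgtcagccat
H2AZ1: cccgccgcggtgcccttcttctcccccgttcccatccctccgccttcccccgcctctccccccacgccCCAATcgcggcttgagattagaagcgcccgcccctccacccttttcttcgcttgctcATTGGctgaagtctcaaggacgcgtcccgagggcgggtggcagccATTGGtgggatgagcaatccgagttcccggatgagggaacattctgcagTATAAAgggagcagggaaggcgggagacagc
H2AZ2: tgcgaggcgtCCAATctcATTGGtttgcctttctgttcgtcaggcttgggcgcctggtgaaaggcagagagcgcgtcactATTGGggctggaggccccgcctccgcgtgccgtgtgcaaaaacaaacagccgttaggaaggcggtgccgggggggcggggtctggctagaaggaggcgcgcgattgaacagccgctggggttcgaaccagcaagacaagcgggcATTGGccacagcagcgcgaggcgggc
H3-3B held 4 CCAAT matches and a TATAAA match that begins 29 bases before the start, while H3-3A held 1 CCAAT match and 0 TATAAA matches. H2AZ1 held 3 CCAAT matches and a TATAAA match 31 bases before the start, and H2AZ2 held 4 CCAAT matches and 0 TATAAA matches. Among all 9 genes, H2AX had 4 CCAAT matches and H2AJ had 3, and H2AX and H1-10 each had a TATAAA match 31 bases before the start. H1-10, MACROH2A1 and MACROH2A2 had 0 CCAAT matches. Of 35116 promoters of this length, 9.53% hold at least 2 CCAAT matches, and 2.63% hold TATAAA on the gene's strand in the last 50 bases. A match is a description of the letters. RefSeq lists 4 starts for H3-3A and 2 for MACROH2A1, and the one with the most GENCODE coding transcripts starting within 100 bases was used. The H2AZ1 start used is not the GENCODE one.

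Of 480 wells, 410 were kept, with a median of 514679 counts. J-Lat A2 with SAHA lost more wells than the other groups: 53 of 120 were left out in one batch and 13 of 81 in the other, against 2 of 96 for J-Lat A2 with DMSO, 2 of 81 with PMA and 0 for Jurkat. T cell markers were read in every group, and their summed level in counts per 1000000 (CPM) was 4555 to 5075 with DMSO, 890 to 1210 with SAHA and 11652 to 13799 with PMA. Of the 10 T cell markers, 1 was at 0 in 1 sum and all were read in the other sums. Of the 5 B cell markers, 4 were at 0 in every sum and CD79A reached 90.9 CPM, and the summed level of the myeloid markers did not pass 1.75 CPM, of the NK cell markers 13.6, of the erythroid markers 2.3 and of the fibroblast or epithelial markers 9.48.

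Levels of different genes were compared per kilobase of the principal transcript, as CPM per kb, which depends on the transcript chosen. In J-Lat A2 with DMSO the order was H2AZ1 (4532 and 7896 CPM per kb in the 2 batches), H3-3B (576 and 755), H3-3A (534 and 623), H2AZ2 (315 and 293), MACROH2A1 (91.1 and 86.6), H2AX (5.29 and 7.3) and H1-10 (3.3 and 4.68). The batches of H3-3B and H3-3A overlapped, and those of the other neighbours did not. Jurkat with DMSO, from H2AZ1 at 3685 and 4925 CPM per kb, had the same order down to MACROH2A1 in the first batch. In the second batch H3-3A (586) stood above H3-3B (571) and the others kept their order. In both batches H1-10 (2.5 and 1.99) there stood above H2AX (1.3 and 1.15). H2AJ and MACROH2A2 were at or near 0. H2AJ had 1 count in 1 well of 410 and did not pass the filter on low counts. MACROH2A2 had 37 counts in 3 wells, 7 of them in 1 SAHA well of J-Lat A2 and the others in 2 PMA wells of Jurkat. In J-Lat A2 with DMSO, 0 of 94 wells had a read of either gene, which allows a share of wells with a read of up to 3.19% (3 of 94).

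**Figure D1:**
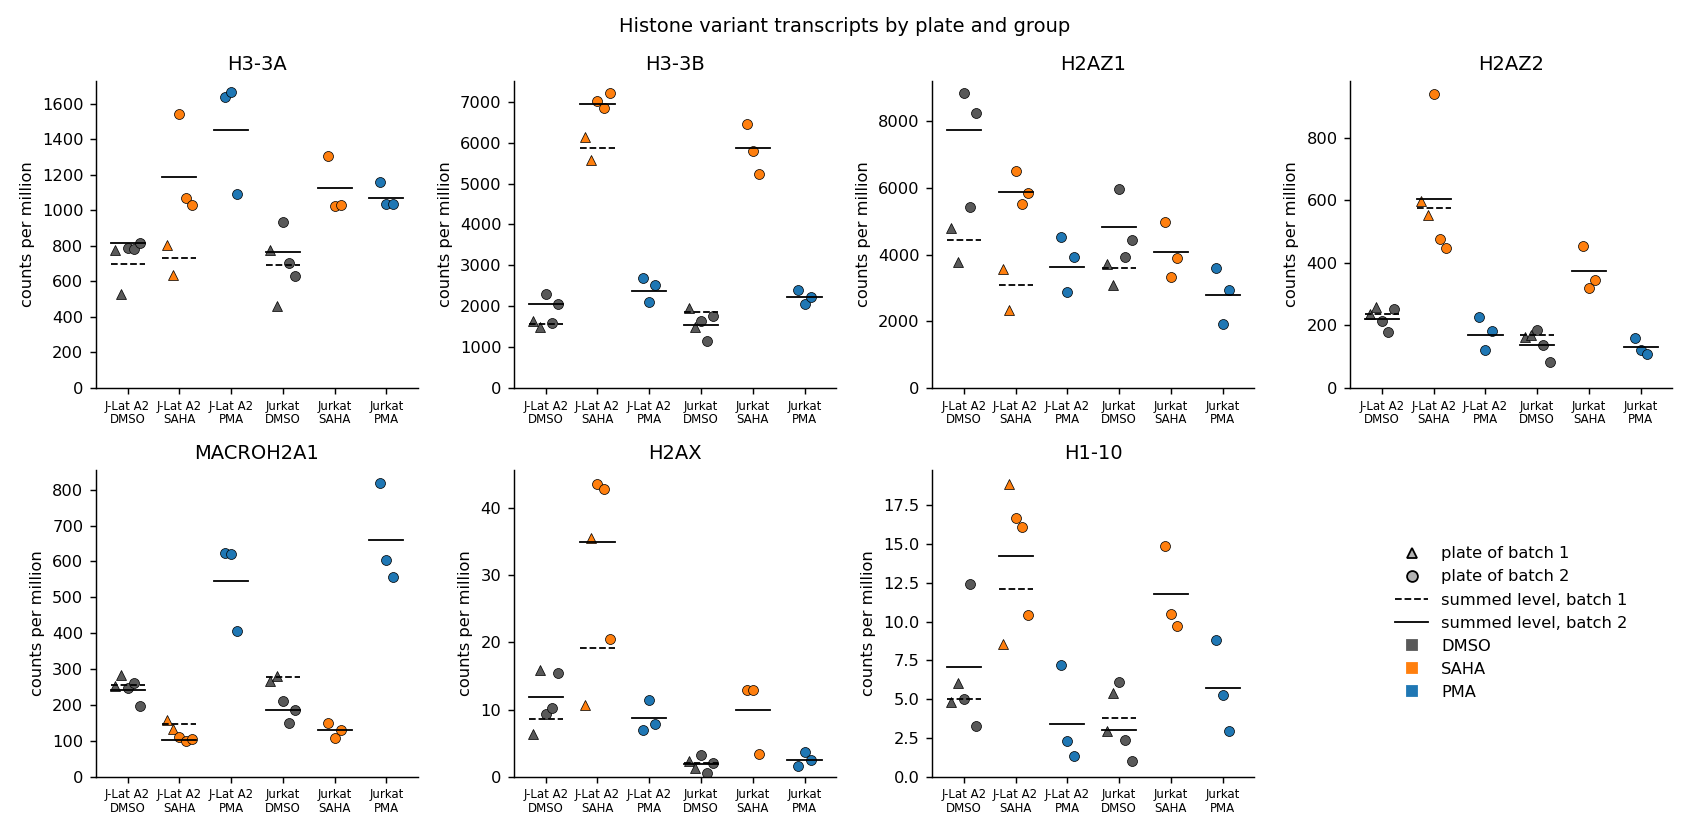
Level of 7 histone variant genes (y axis, CPM, from 0) in each plate sum (points) of the 6 groups (x axis). Triangles are plates of the first batch, circles plates of the second, and lines the sum of a batch. H3-3B lies at 5239 to 7205 CPM with SAHA and at no more than 2699 CPM elsewhere.

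With SAHA, J-Lat A2 cells had more H3-3B and H2AZ2 RNA and less MACROH2A1 RNA, and Jurkat cells had more H3-3B and H2AZ2 RNA. Under the edgeR quasi-likelihood test, adjusted over all 13558 genes tested and called at an adjusted p under 0.05, 3 of the 8 tested members were called in J-Lat A2, 2 higher and 1 lower. Over all genes tested, 8.43% were called. In Jurkat 2 of the 8 were called, both higher, against 4.22% of all genes. The median log2 change of the 8 was 1.25 in J-Lat A2, where that of all genes was 0.12, and 0.90 in Jurkat, where it was 0.11. These medians include MACROH2A2, which was at or under the count floor in most groups.

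H3-3B had the clearest response. Its level in the 5 J-Lat A2 plates was 1629, 1497, 2302, 1596 and 2054 CPM with DMSO. With SAHA the same plates gave 6146, 5582, 7018, 6858 and 7205 CPM. The lowest SAHA plate stood above the highest DMSO plate by a wide margin. The batch sums were 1801 ± 342 CPM (SD, n = 2) with DMSO and 6403 ± 757 CPM (SD, n = 2) with SAHA. The fitted log2 change was 1.83 ± 0.16 (SE; edgeR adjusted p = 2.37e-04), a 3.56-fold rise. In Jurkat the 5 DMSO plates lay between 1155 and 1965 CPM and the 3 SAHA plates were at 6452, 5799 and 5239 CPM, again without overlap. The change there was 1.72 ± 0.20 (adjusted p = 0.00244).

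H3-3A, the gene with the same protein product, did not pass the test with SAHA in either line. In J-Lat A2 its plates were at 776, 529, 787, 781 and 818 CPM with DMSO. With SAHA they were at 803, 636, 1545, 1072 and 1033 CPM. SAHA was the higher on each of the 5 plates, but the groups overlapped. The log2 change was 0.32 ± 0.16 (adjusted p = 0.307) in J-Lat A2 and 0.45 ± 0.21 (adjusted p = 0.31) in Jurkat. With plates as the units and the plate as a block it passed in both (adjusted p = 0.0169 and 0.0182), but separate cultures for the plates are not stated.

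The balance within the pair therefore moved toward H3-3B with SAHA. The log2 ratio of H3-3B to H3-3A was 1.03 to 1.55 over the J-Lat A2 plates with DMSO and 2.18 to 3.13 with SAHA. In Jurkat it was 0.72 to 1.69 with DMSO and 2.30 to 2.50 with SAHA. The ranges did not overlap in either line. Per kilobase, H3-3B made up 51.9% and 54.8% of the pair in the 2 J-Lat A2 DMSO batches and 79.4% and 73.8% with SAHA. The ratio was described and not tested.

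H2AZ2, the minor H2A.Z gene, rose with SAHA in both lines. Its J-Lat A2 plates were at 238, 258, 215, 179.5 and 252 CPM with DMSO and at 598, 554, 940, 475 and 449 CPM with SAHA. Every SAHA plate was above every DMSO plate. The batch sums were 229 ± 11.8 CPM (SD, n = 2) and 589 ± 20.7 CPM (SD, n = 2), and the log2 change was 1.37 ± 0.17 (adjusted p = 0.00148). In Jurkat the DMSO plates spanned 82.5 to 186.8 CPM and the SAHA plates 320 to 454 CPM, with a log2 change of 1.36 ± 0.22 (adjusted p = 0.00869). That Jurkat call was lost without the second DMSO batch (adjusted p = 0.0694). Counts of H2AZ2 were not whole numbers in 120 of its 395 wells with a read, and those of H3-3B in 98 of 404. Some reads of these genes were thus shared out among similar sequences. The same held for H2AZ1 in 43 of 401 wells and H3-3A in 37 of 402. Over all features and wells, 13.7% of values above 0 were not whole.

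H2AZ1, by far the more abundant H2A.Z gene, did not pass with SAHA. Its J-Lat A2 plates were at 4797, 3764, 8860, 5426 and 8259 CPM with DMSO and at 3553, 2342, 6516, 5512 and 5841 CPM with SAHA. SAHA was the lower on 4 of the 5 plates, and the second batch stood above the first in both groups. The log2 change was -0.46 ± 0.14 (adjusted p = 0.0715), and -0.39 ± 0.18 (adjusted p = 0.301) in Jurkat. The J-Lat A2 difference passed with DESeq2 (adjusted p = 0.014), on plates with the plate as a block (0.0101) and in the main design without the second SAHA batch (0.0255), the first Jurkat DMSO batch (0.0322) or the second (0.0389). The log2 ratio of H2AZ2 to H2AZ1 was -5.36 to -3.87 over the J-Lat A2 plates with DMSO and -3.70 to -2.08 with SAHA. In Jurkat it was -5.75 to -4.18 and -3.50 to -3.38. H2AZ2 thus took a larger share of the pair on every SAHA plate, while H2AZ1 remained the main transcript.

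**Figure D2:**
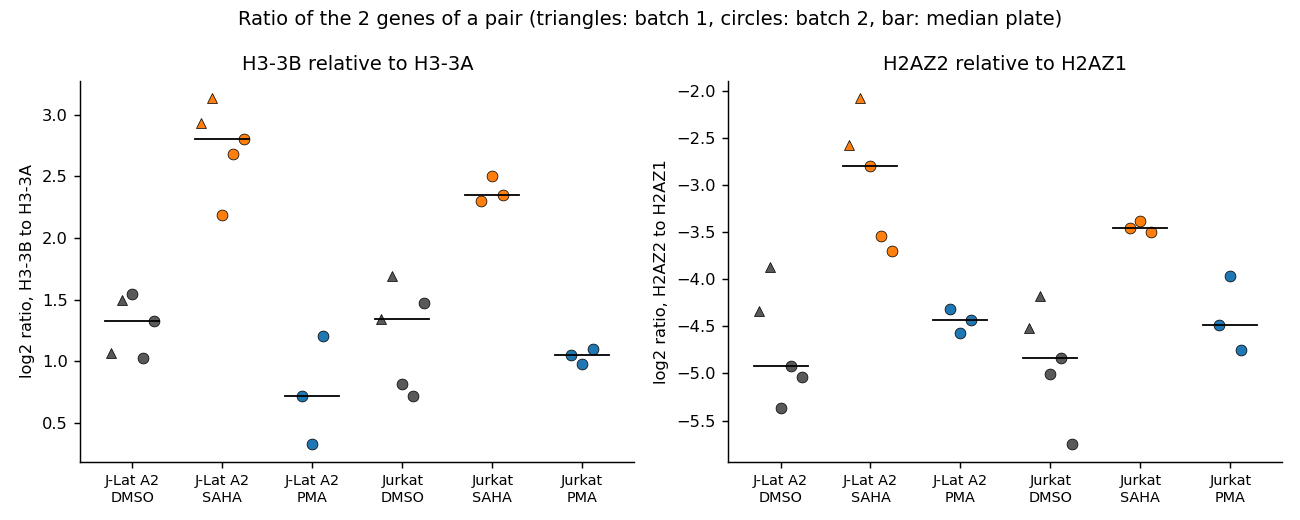
Log2 ratio of H3-3B to H3-3A (left) and of H2AZ2 to H2AZ1 (right) in each plate sum, by group (x axis). Triangles are first-batch plates, circles second-batch plates and bars the median plate, and in both panels the SAHA plates lie above the DMSO and PMA plates of their line.

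MACROH2A1 fell with SAHA in J-Lat A2. Its plates were at 253, 283, 246, 261 and 197.1 CPM with DMSO and between 99.2 and 157.3 CPM with SAHA (median 110.5), with no overlap. The log2 change was -1.02 ± 0.18 (adjusted p = 0.00849), and the call was lost without the second J-Lat A2 DMSO batch (adjusted p = 0.141). In Jurkat the DMSO plates lay between 150.6 and 281 CPM (median 211) and the SAHA plates at 150.6, 106.4 and 130.2 CPM. Each SAHA plate was below its DMSO counterpart, the highest SAHA plate equalled the lowest DMSO plate to the digits given, and the log2 change of -0.62 ± 0.24 did not pass (adjusted p = 0.217). With plates as the units and the plate as a block it passed (log2 -0.57, adjusted p = 0.0289). MACROH2A1 was read in 91 of 94 J-Lat A2 DMSO wells (96.8%; 95% exact Clopper-Pearson interval 91 to 99.3) and in 71.9% of the SAHA wells (63.5 to 79.2), 46 of 67 and 51 of 68 in the 2 batches. Each well was then thinned to 100000 counts and shallower wells were left out, which leaves 91 DMSO wells and 53 and 64 SAHA wells. These shares were then 96.7% and 80.5%. Before thinning, H2AZ1 was read in 59 and H3-3B in 61 of the 67 first-batch SAHA wells. Missing reads there were thus not particular to MACROH2A1. In the second SAHA batch these genes were read in 67 and 68 of 68 wells. In Jurkat MACROH2A1 was read in 30 of 30 DMSO wells and 34 of 36 SAHA wells.

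H2AX and H1-10 were low and their changes did not pass. Their levels count only the messages that the poly(T) primer copied. H2AX in J-Lat A2 was at 6.4, 15.9, 9.32, 10.2 and 15.4 CPM with DMSO and at 10.6, 35.5, 43.6, 42.9 and 20.5 CPM with SAHA. The fitted log2 change was 1.39 ± 0.72 (adjusted p = 0.32), and 2.12 ± 0.94 (adjusted p = 0.285) in Jurkat, where DMSO gave 0.581 to 3.27 CPM and SAHA 3.41 to 12.9 CPM. H1-10 in J-Lat A2 was at 3.24 to 12.4 CPM with DMSO and 8.53 to 18.9 CPM with SAHA (log2 change 1.13 ± 0.89, adjusted p = 0.547). In Jurkat H1-10 was at 0.983 to 6.13 CPM with DMSO and 9.73 to 14.9 CPM with SAHA (1.72 ± 1.14, adjusted p = 0.522). The SAHA plates of both genes lay above all DMSO plates in Jurkat and overlapped them in J-Lat A2. The share of all genes whose plates separate like this was not counted. Jurkat with DMSO held 10 and 16 counts of H2AX in the 2 batches, and 18 and 26 of H1-10. H1-10 was read in 45.7% of J-Lat A2 DMSO wells (95% exact interval 35.4 to 56.3) and 68.1% of SAHA wells (59.6 to 75.9). Thinned to 100000 counts, its shares were 30.7% and 51%. H2AX was read in 67% of J-Lat A2 DMSO wells and 58.5% of SAHA wells, and in 46.8% and 56.3% after thinning. The order of its shares thus turned with thinning, which also left out the shallower wells. In the second batch, where median totals were 550336 counts with DMSO and 555658 with SAHA, it turned as well. The shares there were 71.4% and 66.2%, and 47% and 60.6% after thinning. Intervals cover counting error only. For comparison, reads of the provirus, which Jurkat cells lack, appeared in 2 of 30, 1 of 36 and 1 of 36 Jurkat wells with DMSO, SAHA and PMA.

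With PMA, both lines had more MACROH2A1 and less H2AZ1 RNA. In J-Lat A2 2 of the 8 tested members were called, 1 higher and 1 lower, against 1.98% of all genes. In Jurkat the count was also 1 higher and 1 lower, against 2.27%. The median log2 change of the 8 was -0.39 in J-Lat A2 (all genes 0.04) and 0.34 in Jurkat (all genes 0.07). PMA has 1 batch per line, so its spread was taken from the groups with both batches.

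MACROH2A1 was at 624.9, 621 and 407 CPM on the 3 J-Lat A2 PMA plates. The same 3 plates gave 246, 261 and 197.1 CPM with DMSO, and the lowest PMA plate stood above all 5 DMSO plates. The log2 change was 1.32 ± 0.23 (adjusted p = 0.0173), a 2.5-fold rise. The Jurkat PMA plates were at 820, 604 and 557 CPM, above all Jurkat DMSO plates (log2 change 1.73 ± 0.23, adjusted p = 0.00484). Without the second Jurkat DMSO batch that p was 0.0508. Without the batch term the J-Lat A2 p was 0.0803. MACROH2A1 was the only member called in opposite directions with the 2 agents in J-Lat A2.

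H2AZ1 was at 4537, 2877 and 3927 CPM on the J-Lat A2 PMA plates, each below the 8860, 5426 and 8259 CPM of the same plates with DMSO. The ranges overlapped once the lower first-batch DMSO plates were counted. The log2 change was -1.05 ± 0.18 (adjusted p = 0.018), a 2.07-fold fall. In Jurkat PMA gave 3598, 1910 and 2931 CPM against 5979, 3921 and 4449 CPM on the same plates (-0.95 ± 0.18, adjusted p = 0.0299). Without the batch term, neither passed (adjusted p = 0.518 in J-Lat A2 and 0.584 in Jurkat), and without the second DMSO batch of J-Lat A2 the call in that line was lost (adjusted p = 0.218).

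The wells behind the lower H2AZ1 sum were unlike one another. In the second batch, the 10th and 90th percentiles over J-Lat A2 wells were 4608 and 11652 CPM with DMSO, a ratio of 2.53, and 450 and 6844 CPM with PMA, a ratio of 15.2. In Jurkat the ratio was 1.88 with DMSO and 11.5 with PMA. With SAHA it was 4.19 in J-Lat A2 and 2.38 in Jurkat. In the first SAHA batch of J-Lat A2, H2AZ1 was read in 59 of 67 wells. The 10th percentile there was 0 CPM, so a wide spread was not particular to PMA. In PMA wells H2AZ1 was low where the transcripts of G2 and M phase genes were low: Spearman's rho with the summed level of 30 such genes was 0.83 over 79 J-Lat A2 wells and 0.84 over 36 Jurkat wells. With DMSO in the second batch, rho was -0.12 over 35 and -0.12 over 18 wells. With SAHA in that batch it was 0.16 over 68 and -0.12 over 36. With the summed level of 27 S phase genes, rho was 0.62 and 0.72 with PMA and 0.08 and 0.21 with DMSO. With SAHA it was -0.15 in J-Lat A2 and -0.46 in Jurkat. These wells share library preparation, and rho of H2AZ1 with the total count was 0.19 and 0.21 in the PMA wells. The median summed level of the G2 and M genes itself was 7493 CPM with DMSO and 2716 CPM with PMA in J-Lat A2, and 9967 and 1599 CPM in Jurkat.

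**Figure D3:**
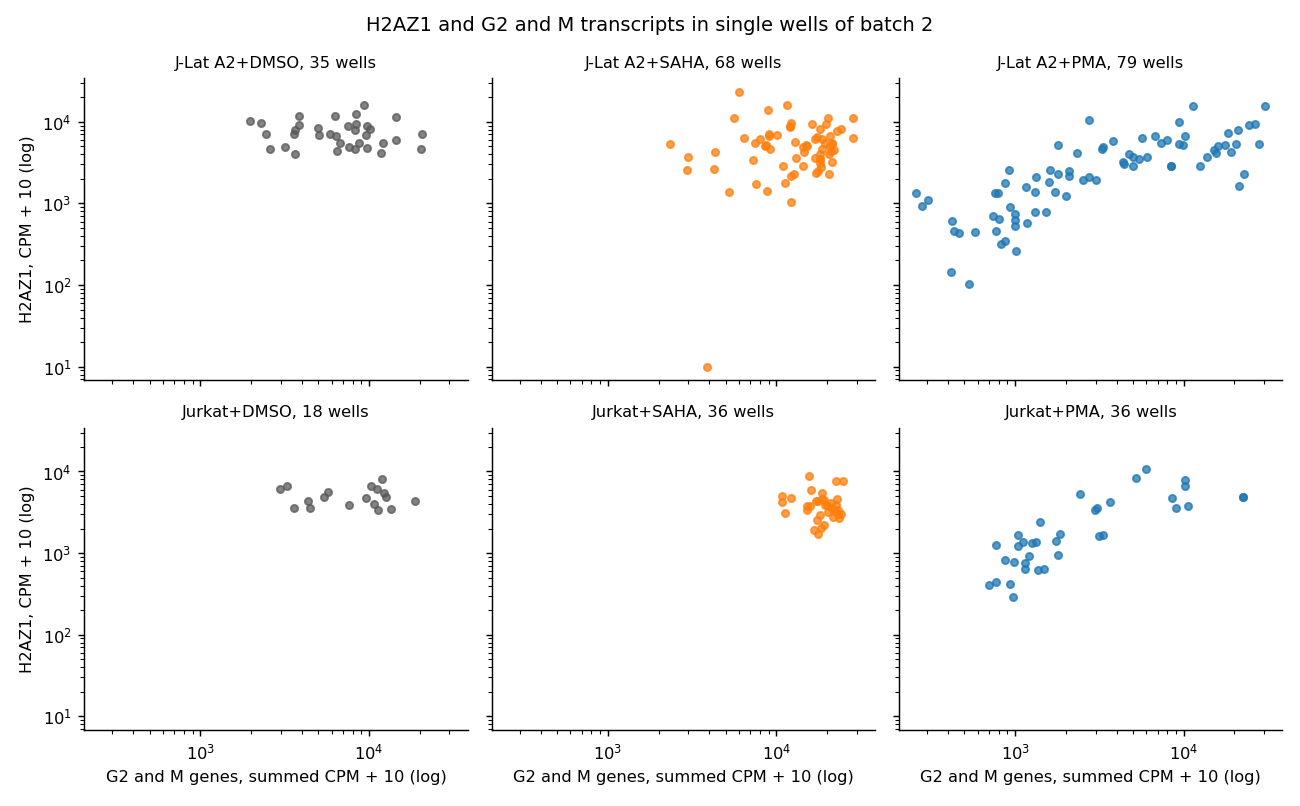
H2AZ1 (y axis, CPM + 10, log scale) against the summed level of 30 G2 and M phase genes (x axis, CPM + 10, log scale) in each kept well of the second batch, by group. With PMA the wells spread along a rising band (rho 0.83 and 0.84), while with DMSO they form a compact cloud at high H2AZ1.

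In PMA wells the other members showed weaker ties to these lists. H2AX in PMA wells had a rho of 0.44 in J-Lat A2 and 0.51 in Jurkat with the G2 and M genes, and 0.42 and 0.43 with the S phase genes. MACROH2A1 had -0.16 in both lines with the G2 and M genes. H3-3B had 0.41 in J-Lat A2 and -0.20 in Jurkat, so it had no common direction. In J-Lat A2 wells of the second batch, rho of H2AZ1 with the level of provirus RNA was -0.17 with SAHA and -0.31 with PMA, and that of H2AX was 0.31 and -0.16. In the 67 first-batch SAHA wells rho was -0.09 for H2AZ1 and 0.00 for H2AX, so the value for H2AX was not seen in both batches. MACROH2A1 had 0.06 and -0.04, and H3-3B -0.10 and -0.15.

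Neither H3.3 gene passed with PMA on the batch sums. H3-3A was at 1638, 1669 and 1094 CPM on the J-Lat A2 PMA plates, above all 5 DMSO plates, with a log2 change of 0.76 ± 0.21 (adjusted p = 0.11). DESeq2 called this difference (adjusted p = 0.00618), and so did the fit on plates (adjusted p = 6.36e-04) and the fits without the first or second J-Lat A2 SAHA batch (0.00989 and 0.00906). In Jurkat H3-3A was at 1162, 1035 and 1035 CPM with PMA (0.38 ± 0.21, adjusted p = 0.502), also above all DMSO plates. On plates, with the plate as a block, both genes passed in Jurkat, H3-3A with an adjusted p of 0.0446 and H3-3B with 0.0415, as they did in the second batch alone (0.0407 and 0.00685). H3-3B was at 2699, 2093 and 2518 CPM in J-Lat A2 (0.34 ± 0.20, adjusted p = 0.591) and at 2407, 2045 and 2221 CPM in Jurkat (0.31 ± 0.20, adjusted p = 0.6). The H3-3B to H3-3A log2 ratio with PMA was 0.33 to 1.20 in J-Lat A2 and 0.98 to 1.10 in Jurkat, which overlapped the DMSO plates. H2AZ2 had a log2 change of -0.38 ± 0.22 (adjusted p = 0.588) in J-Lat A2 and -0.17 ± 0.22 (adjusted p = 0.876) in Jurkat. H2AX and H1-10 stayed within 1.34 to 11.4 CPM over the PMA plates of both lines, with standard errors of 0.92 to 1.16 on the log2 scale.

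**Figure D4:**
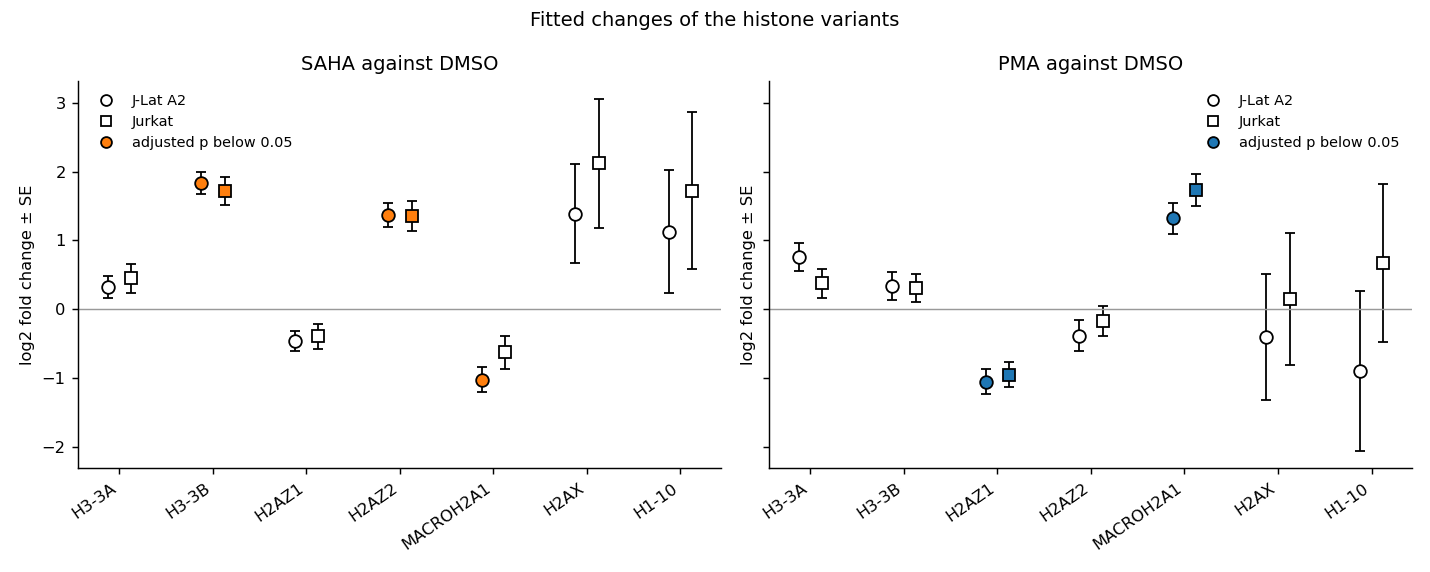
Fitted log2 fold change against DMSO (y axis, points; bars are ± 1 SE) of 7 members (x axis) with SAHA (left) and PMA (right), circles for J-Lat A2 and squares for Jurkat. Filled symbols have an adjusted p below 0.05. With SAHA they are H3-3B and H2AZ2, above 0 in both lines, and MACROH2A1, below 0 in J-Lat A2. With PMA they are MACROH2A1, above 0, and H2AZ1, below 0, in both lines.

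PMA and SAHA were also compared directly in J-Lat A2, where 3 of the 8 tested members were called, 1 higher and 2 lower with PMA, against 3.62% of all genes. MACROH2A1 was higher with PMA by 2.34 ± 0.23 on the log2 scale (adjusted p = 3.95e-04), a 5.06-fold difference. H2AZ2 was lower by 1.75 (log2 -1.75 ± 0.23, adjusted p = 0.00244), and H3-3B had a log2 difference of -1.49 ± 0.21 (adjusted p = 0.00363). The PMA and SAHA plates of these 3 genes did not overlap in J-Lat A2, nor in Jurkat, where the difference was not tested. Those of H1-10, which was not called in J-Lat A2, did not overlap in either line. The share of all genes whose plates separate in this way was not counted, here or in the other comparisons. H2AZ1 gave -0.59 ± 0.18 (adjusted p = 0.124), and passed with DESeq2 (0.0234), on plates (0.00324), in the second batch alone (6.83e-04) and without the first SAHA batch (0.0282). The median of the 8 was -1.62 and of all genes -0.05. The comparisons of SAHA and of PMA with DMSO share their DMSO samples.

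With DMSO alone, 0 of the 8 tested members differed between J-Lat A2 and Jurkat under edgeR, where 0.398% of all genes did. At an unadjusted p under 0.05 there were 3, H2AX, H2AZ1 and H2AZ2, and DESeq2 called 1, H2AZ1 (log2 0.46, adjusted p = 0.0408). H2AZ1 also passed on plates (log2 0.50, adjusted p = 0.00899) and in the second batch alone (0.64, adjusted p = 0.0138). H2AX was at 6.4 to 15.9 CPM on the 5 J-Lat A2 plates and 0.581 to 3.27 CPM on the 5 Jurkat plates, without overlap. Its log2 difference was 2.34 ± 0.78 (adjusted p = 0.324), resting on 26 counts in the 30 Jurkat wells. H2AX was read in 67% of J-Lat A2 wells and 33.3% of Jurkat wells, and in 46.8% and 15.7% after thinning. H2AZ1 gave 0.48 ± 0.14 (adjusted p = 0.221) and H2AZ2 0.59 ± 0.17 (adjusted p = 0.242). H3-3A, H3-3B and MACROH2A1 gave 0.05 ± 0.16, 0.07 ± 0.16 and 0.13 ± 0.18.

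With each well given equal weight (limma on the mean log2 level of wells) no member passed. That fit called 0 of all 13558 genes in any comparison. Some sizes of the members moved by over 1.5 times. For SAHA in J-Lat A2 the log2 change was then 0.64 for H2AZ2, 1.15 for H3-3B and -2.53 for MACROH2A1. For PMA that of H2AZ1 was -1.89 in J-Lat A2 and -1.81 in Jurkat, and for PMA against SAHA that of MACROH2A1 was 3.88 and of H3-3B -1.02.

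The response of the members to each agent was not shown to differ between the lines. For SAHA 0 of 8 were called by the interaction test in edgeR, 0 had an unadjusted p under 0.05 and DESeq2 called 0, with 0.00738% of all genes called. For PMA the same 3 counts were 0, with 0.0221% of all genes. The difference in SAHA response, J-Lat A2 minus Jurkat, was 0.11 ± 0.26 on the log2 scale for H3-3B, 0.01 ± 0.28 for H2AZ2 and -0.40 ± 0.30 for MACROH2A1. For PMA it was -0.41 ± 0.31 for MACROH2A1 and -0.10 ± 0.24 for H2AZ1. MACROH2A1 passing with SAHA in J-Lat A2 and not in Jurkat is thus no shown difference between the lines.

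Of 44 tested replication-dependent core histone genes, 2 rose and 0 fell with SAHA in J-Lat A2, beside 8.43% of all genes called. With PMA or in Jurkat 0 were called. The 2 that rose were H2BC21 (adjusted p = 0.0290) and H2BC5 (adjusted p = 0.0484). They fall outside the naming rule for their low level and were named after their values were seen. H2BC21 was at 44.8 and 9.59 CPM in the 2 SAHA batches of J-Lat A2, and at 0.804 and 0 CPM with DMSO. A poly(T) primer copies few replication-dependent messages, so their levels here are not those of the cell.

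Genes that handle the variants were counted by their complexes. Of 10 H3.3 chaperone genes (the HIRA and DAXX-ATRX systems and partners), 0 were called in any comparison with DMSO, with medians of 0.17 and -0.22 for SAHA and PMA in J-Lat A2. ASF1A, which hands H3 to its chaperones, gave 0.49 ± 0.17 with SAHA in J-Lat A2 (adjusted p = 0.108) and 0.74 ± 0.21 in Jurkat (adjusted p = 0.0926). Of 17 genes of the H2A.Z exchange complexes, 1 rose and 1 fell with SAHA in both lines, beside 8.43% of all genes called in J-Lat A2 and 4.22% in Jurkat. BRD8, a bromodomain subunit of the TIP60 complex, rose from 60 and 56.6 CPM to 170.7 and 125.4 CPM in J-Lat A2 (1.34 ± 0.26, adjusted p = 0.0134) and by 1.84 ± 0.32 in Jurkat (adjusted p = 0.014). MORF4L1, a chromodomain subunit, fell from 469 and 450 CPM to 159.7 and 217 CPM (-1.30 ± 0.18, adjusted p = 0.00261) and by 1.55 in Jurkat (log2 -1.55 ± 0.25, adjusted p = 0.00869). With PMA 1 gene of the 17 fell in each line, beside 1.98% of all genes called in J-Lat A2 and 2.27% in Jurkat. They were RUVBL1 in J-Lat A2 (-1.31 ± 0.25, adjusted p = 0.026) and RUVBL2 in Jurkat (-0.85 ± 0.18, adjusted p = 0.0462). They encode the partner ATPases of these complexes.

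Of 17 general histone chaperones and linker histone partners, 7 fell and 0 rose with SAHA in J-Lat A2, beside 8.43% of all genes called. Their median log2 change was -0.42. In Jurkat 2 of the 17 fell, beside 4.22% of all genes called. SSRP1, a subunit of the FACT complex, fell from 216 and 284 CPM to 77.4 and 60.3 CPM in J-Lat A2 (-1.85 ± 0.23, adjusted p = 0.0013). PTMA, which encodes prothymosin alpha, a partner of linker histones, fell from 2381 and 2979 CPM to 1258 and 1588 CPM (-0.91 ± 0.12, adjusted p = 0.00182). SET (-1.31 ± 0.26, adjusted p = 0.0136) and CHAF1B (-1.30 ± 0.34, adjusted p = 0.0424) fell there as well. With PMA 1 of the 17 fell in J-Lat A2 and 3 fell in Jurkat, beside 1.98% and 2.27% of all genes called. In J-Lat A2 it was HMGB1 (-1.19 ± 0.16, adjusted p = 0.00601). In Jurkat they were HMGB1 (-1.36 ± 0.17), HMGB2 (-1.38 ± 0.20) and HMGN2 (-1.02 ± 0.16). These are non-histone proteins that share binding sites on the nucleosome or linker DNA. Of 16 genes of damage signalling around H2AX, 1 was called with SAHA in J-Lat A2, NBN (-1.06 ± 0.26, adjusted p = 0.0348), a share no higher than the 8.43% of all genes, and 0 in the other 3 comparisons with DMSO. Of 10 genes of histone message processing, 1 was called in these 4 comparisons, with PMA in J-Lat A2, beside 1.98% of all genes. It was SLBP, the stem-loop binding protein (-1.24 ± 0.27, adjusted p = 0.0484).

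Cell cycle lists moved with the agents beside these results. Over all genes, 8.43% and 4.22% were called with SAHA in J-Lat A2 and Jurkat, and 1.98% and 2.27% with PMA. Of 27 S phase genes, 11 fell with SAHA in J-Lat A2 and 8 in Jurkat, and 2 and 5 fell with PMA, while 0 rose. The 2 with PMA in J-Lat A2 include SLBP, already counted above under message processing. Of 30 G2 and M phase genes, 17 and 15 rose with SAHA in J-Lat A2 and Jurkat, and 2 and 11 fell with PMA. T cell markers fell with SAHA (7 of 10 in both lines) and rose with PMA (4 of 10 in both). The part of these shifts, and of the wells lost with SAHA, in the levels of the members was not tested. Fewer cells with a transcript and less RNA per cell cannot be told apart in the summed counts.

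The genes most like each member over the 24 plate sums were found by Pearson's r of log2(CPM + 1) among 5907 genes with a mean of at least 20 CPM. For H3-3B they were TUBA1A (r = 0.933), CGREF1 (0.927) and MGST3 (0.920). For H2AZ2 they were DCXR (0.902), MDH1 (0.885) and CGREF1 (0.884), so CGREF1 was shared by the pair that rose with SAHA. For MACROH2A1 they were SNX5 (0.937), CLIC1 (0.935) and SFT2D1 (0.935). H2AZ1 was nearest to PDCD5 (0.861), PTGES3 (0.857) and RPL5 (0.832), and H3-3A to RPL17-C18orf32 (0.858), TPT1 (0.845) and BBLN (0.839). The 24 sums share groups and batches, and the correlations are a description.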

How the data were processed

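RNA of 480 single cells, 1 per well, was measured by full-length cDNA sequencing from a poly(T) primer, per the labels' protocols. The deposited values are estimated counts per gene and well, which the authors made from the reads. The submitters' processing notes list GRCh38.p13, alevin and Salmon 1.5.1 without their roles, and no source used here gives the strand setting. Of 20302 features, 20271 matched a symbol. The members and gene lists were chosen with earlier results of these data known.

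A well was kept with at least 0.1 of its plate's median total and 500 genes, which left out 70 wells. The kept wells held 19756 to 984418 counts. Counts were summed per group and batch (9 sums of 4682181 to 36603816 counts) and rounded. The batch of a plate was read from the series' count of plates per batch and from the runs of plate numbers in the labels. Tests used edgeR 4.0.16 in R 4.3.3 (TMM, filterByExpr, quasi-likelihood, two-sided) with group and batch terms, which leave 2 residual degrees of freedom beside 7.75 prior ones, and Benjamini-Hochberg adjustment over 13558 genes. Nothing says that samples of a batch came from separate cultures, so p-values measure the spread between these sums. CPM of sums use TMM factors, and CPM of wells use the well's total. Alternatives were other size factors, DESeq2 1.42.0, no filter, limma 3.58.1 on equally weighted wells, no batch term, plates as units, the second batch alone, other well filters and leaving out, in turn, each of the 6 sums whose group has both batches. All members are named. From each list and comparison, up to 4 called genes of at least 20 mean CPM with the largest change could be named. With no call, the 2 most abundant could be. Not all of these genes are named in the text. The batch is an experimental batch per the series' design, so it pairs the groups. The list of other replacement and linker histones is not reported here.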

Additional observations from a re-analysis of the deposited data

Results flagged for a closer look

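H3-3A in J-Lat A2 with DMSO was at 528.8 CPM on 1 first-batch plate, far below the 776 to 818 CPM of the other 4 plates. H3-3A was also lowest on that plate in the other groups it holds, at 636 CPM in J-Lat A2 with SAHA and 459 CPM in Jurkat with DMSO. The gap to the nearest plate made up 0.853 of the whole range. Of 21 gene and group sets of 5 plates examined, 1 stood out in this way, and chance gives about 1 in 20.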

How the results depend on the processing

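The 12 member calls were recomputed under 15 alternatives: of 180 values, 19 kept their direction but not the call, 0 reversed and the others kept both. With equal weight per cell (limma on mean log2(CPM + 1) of wells), 0 members were called in each comparison, against 3, 2, 2, 2 and 3 for SAHA and PMA in J-Lat A2, SAHA and PMA in Jurkat, and PMA against SAHA; that fit called 0 genes of all tested in any comparison, while 2618 had an unadjusted p under 0.05 for SAHA in J-Lat A2. Batches pair the groups. With no replicate block, for PMA 0 members passed in J-Lat A2 and 1 in Jurkat, beside 1.79% and 2.05% of all genes. The block changed no other count of members. With plate sums and the plate as a replicate block, 5 passed for SAHA in J-Lat A2. In Jurkat 4 passed for SAHA and 4 for PMA, and 1 passed between the lines. Over all genes that fit called 14.2%, 11.4%, 7.02% and 1.39% in these comparisons, more than the main fit. The second batch alone gave 4 for PMA in Jurkat and 1 between the lines, beside 5.51% and 0.82% of all genes. DESeq2 gave 1 between the lines, beside 3.13% of all genes. Leaving out in turn each of the 6 sums whose group has both batches (the 3 sums of single-batch groups cannot be left out) gave 2 to 4 members for SAHA and 1 to 3 for PMA in J-Lat A2, 1 to 2 for SAHA and 1 to 2 for PMA in Jurkat, and 0 to 1 between the lines. Over all genes, 1143 calls for SAHA in J-Lat A2 became 1971 with DESeq2, 601 and 368 without the first and second J-Lat A2 DMSO sum, and 695 without the second SAHA sum. For PMA in J-Lat A2, 269 became 744 with DESeq2, 692 on plates, 501 in the second batch alone, 92 without the second J-Lat A2 DMSO sum and 431 and 470 without the first and second SAHA sum. In Jurkat, 572 for SAHA became 1274, 1343, 960 and 282 under the matching settings, and 308 for PMA (2.27% of genes) became 852, 830 and 632, or 0.88% of genes without the second Jurkat DMSO sum, 475 without the first and 3.88% and 4.2% without the J-Lat A2 SAHA sums. Between the lines, 54 became 425 with DESeq2, 1.39% of genes on plates, 94 in the second batch, more with either J-Lat A2 SAHA sum left out (1.07% and 1.19% of genes against 0.398%) and 82 without the first Jurkat DMSO sum. For PMA against SAHA, 491 became 1050 with DESeq2, 1084 on plates and 800 in the second batch. Of the response differences between lines, 1 gene for SAHA and 3 for PMA became 36 and 30 with DESeq2. The cause was not tested, and the plate fit treats plates as replicates, though separate cultures are not stated. Counts of 26 or fewer per batch limit H2AX and H1-10 in Jurkat with DMSO.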
